A study of Mus musculus with 6 samples.

Results

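A set of 8 mature miRNAs that are often used as internal references for miRNA measurements was followed through 6 mouse livers. The members were chosen by name, with earlier results of these data known. They were mmu-miR-191-5p, mmu-miR-425-5p, mmu-miR-423-3p, mmu-miR-423-5p, mmu-miR-186-5p, mmu-miR-320-3p, mmu-miR-361-5p and mmu-miR-361-3p, which is 8 of the 1546 mature miRNAs listed. Small RNA was sequenced from liver tissue of male C57BL/6 mice. The NC group (n = 3 libraries) was given a normal diet, and the MAFLD group (metabolic dysfunction-associated fatty liver disease, n = 3 libraries) a high-fat diet, for 16 weeks from an age of 8 weeks. The study describes 6 mice per diet, and the 3 libraries of a group carry separate replicate numbers. No allele or drug separates the groups, so the diet is the whole of the disease model. The p-values compare 3 with 3 livers. For these p-values, SEs and intervals, limma draws the variance of each miRNA toward that of other miRNAs of similar level. The comparison asked of the 8 miRNAs was how far they vary between livers of one group and between the diets, on the deposited scale and after another scaling of the libraries.

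A miRNA is cut from a hairpin precursor, and either arm of the hairpin, named 5p or 3p, can be loaded into the silencing complex, where bases 2 to 8 (the seed) pair with target mRNAs. A reference miRNA is one whose amount is taken to be alike in all samples, so that other miRNAs can be read as a ratio to it. All 8 members are widely expressed, and most of their precursors lie in introns or exons of broadly transcribed genes.

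The mature sequences are shown to compare the members by their seeds. RefSeq (GRCm38.p6) held 7 of the 8 by name, printed with the seed in capitals and the rest in lower case, 5′ to 3′. MiR-320-3p is named only.
mmu-miR-191-5p: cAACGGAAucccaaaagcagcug
mmu-miR-425-5p: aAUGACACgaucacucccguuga
mmu-miR-423-3p: aGCUCGGUcugaggccccucagu
mmu-miR-423-5p: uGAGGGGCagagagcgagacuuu
mmu-miR-186-5p: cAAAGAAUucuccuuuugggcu
mmu-miR-361-5p: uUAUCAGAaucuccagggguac
mmu-miR-361-3p: uCCCCCAGgugugauucugauuugu
These 7 sequences carry 7 different seeds. They are 22 to 25 bases long, and their G and C content runs from 40.9% in miR-186-5p to 65.2% in miR-423-3p.

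The 8 members come from 6 hairpins on 5 chromosomes (GRCm38, GENCODE annotation). Mir191 lies at chr9:108568319-108568392 and Mir425 at chr9:108568777-108568861, both on the plus strand inside an exon of the lincRNA 4833445I07Rik, with 384 bases between the hairpins. Mir191 also overlaps an antisense miRNA model, Gm24083. Mir423 lies at chr11:77078064-77078172 in an intron of Nsrp1, a splicing regulator, on the same strand. Mir186 lies at chr3:157544279-157544349 in an intron of Zranb2, which encodes a splicing factor. Mir320 lies at chr14:70443510-70443591 in no annotated gene, 63 bases from Polr3d, a subunit of RNA polymerase III. Mir361 lies at chrX:113074824-113074893 in an intron of Chm, a Rab escort protein gene. Both arms of Mir361 and of Mir423 are members, so these 2 hairpins are printed with the 5p and then the 3p arm in capitals.
Mir361: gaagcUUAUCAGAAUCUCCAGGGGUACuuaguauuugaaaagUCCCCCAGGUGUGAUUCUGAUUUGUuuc
Mir423: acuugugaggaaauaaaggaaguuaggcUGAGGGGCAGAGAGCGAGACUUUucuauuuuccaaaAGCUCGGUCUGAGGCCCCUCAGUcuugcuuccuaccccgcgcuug

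The libraries held between 1336935 and 4685712 reads on miRNAs, and the values are CPM, each miRNA's reads scaled to the same total in every library. A level of 3 reads, taken as the lowest that depth can show, was 0.640 to 2.24 CPM, and every member was above it in every library. The share of miR-148a-3p, the most abundant miRNA, was 71.4%, 63.3% and 48.5% in NC and 46.8%, 56.7% and 51.6% in MAFLD livers, and CPM sets every other miRNA against what is left. The hepatocyte markers miR-122-5p and miR-192-5p were abundant in all 6 libraries, together between 100353 and 168406 CPM. NC replicate 1 and NC replicate 2 stood apart from the rest in 3 of 3 brain markers (miR-9-5p, miR-124-3p and miR-128-3p), whose sum was 459 and 735 CPM there, 50.1 CPM in NC replicate 3 and 44.0 to 63.2 CPM in the MAFLD libraries. The 4 immune miRNAs summed to 133 to 231 CPM in NC and 179 to 313 CPM in MAFLD libraries. Summed erythroid, muscle, pancreas and stellate markers overlapped between the groups, with miR-216a-5p of the pancreas list at 0 in 5 of 6 libraries. The part of these cell types in the results was not tested.

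On the CPM scale all 8 members had a higher mean in the MAFLD livers, and none passed an adjusted p of 0.05 in limma. None passed with edgeR or DESeq2 on the recovered reads either, but these scale the libraries by factors of their own. On CPM, 357 of all 501 miRNAs tested were higher too. The median log2 fold change there was 0.43 over all miRNAs and 0.44 over the members. Over the 238 miRNAs whose mean reached 10 CPM, as that of every member did, it was 0.56, with 188 higher. The adjusted threshold was passed by 0.200% of all miRNAs tested, and an unadjusted p under 0.05 by 18.0%. Among the members, 1 of 8 (miR-191-5p) had an unadjusted p under 0.05. After each library was divided by its median ratio, a scaling that sets the typical miRNA equal in all libraries, 3 members were higher and 5 lower. Their median was -0.024, beside 0.044 over all miRNAs tested and 0.11 over the 238. On that scale none passed the adjusted threshold either (0.399% of all miRNAs did), and 1 of 8, again miR-191-5p, had an unadjusted p under 0.05, beside 16.2% of all.

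**Figure D1:**
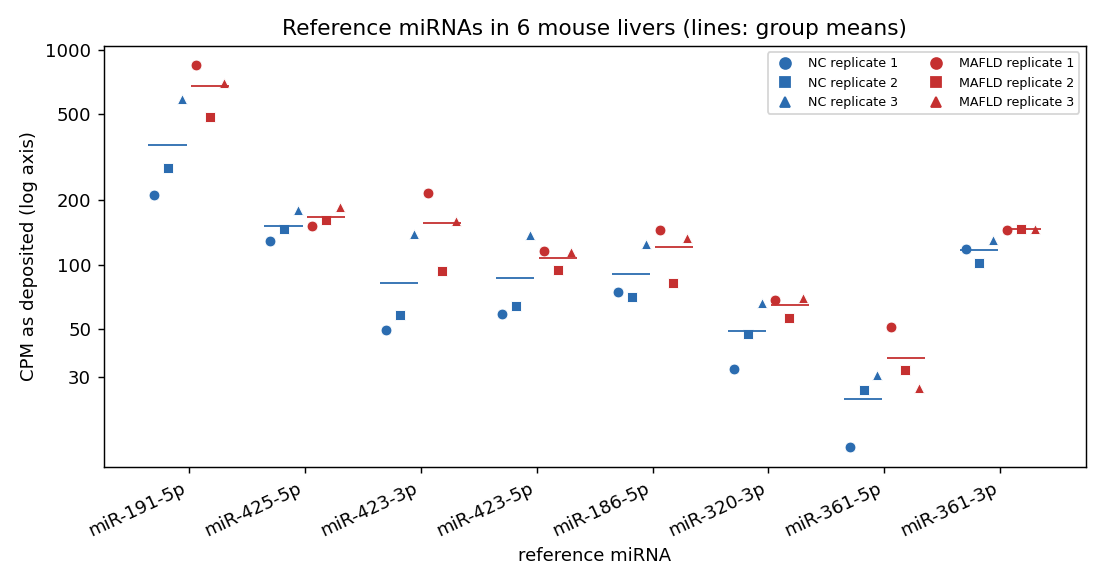
CPM of the 8 reference miRNAs in each of the 6 livers, on a log axis, with NC libraries in blue, MAFLD libraries in red and the group means (n = 3) as horizontal lines. All 8 MAFLD means lie above the NC means, and the groups are separate only for miR-361-3p, where the MAFLD livers sit between 145 and 147 CPM.

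MiR-191-5p, the most often read of the members, had the widest difference between the diets on both scales. It gave 211, 282 and 589 CPM under the normal diet (361 ± 201, mean ± SD) and 848, 487 and 702 CPM under the high-fat diet (679 ± 182). NC replicate 3 lay above MAFLD replicate 2, so the groups overlapped. The fold change was 2.02 (95% interval 1.10 to 3.70, log2 1.01, SE 0.41), with an adjusted p of 0.212 in the limma fit. These values rest on 442 to 2281 reads, and the SD of the 6 log2 values, 0.78, was many times the 0.050 that counting alone gives. After median-ratio scaling the livers read 335, 364 and 471 in NC and 659, 506 and 539 in MAFLD, which no longer overlap. The fold change on that scale was 1.46 (interval 1.06 to 2.01, log2 0.55, SE 0.21), and the adjusted p was 0.228.

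MiR-425-5p lies in the same annotated lincRNA as miR-191-5p, with its hairpin 384 bases downstream, and its values spread far less. It gave 129, 147 and 180 CPM under the normal diet and 152, 162 and 186 CPM under the high-fat diet, a log2 fold change of 0.14 (SE 0.36, adjusted p = 0.864). Its SD over the livers was 0.19, the smallest of the 8 members on CPM. After median-ratio scaling the same livers read 205, 189 and 144 against 118, 169 and 143, so that the direction turned (log2 fold change -0.33, SE 0.24, adjusted p = 0.500) and the SD grew to 0.29. The reads of miR-191-5p per read of miR-425-5p, a ratio that no scaling can move, were 1.63, 1.92 and 3.27 in NC and 5.58, 3.01 and 3.78 in MAFLD livers. NC replicate 3 lay inside the MAFLD range. The 3p arms of this locus were rare. MiR-425-3p was read at 2.35 to 12.7 CPM (log2 fold change 0.25, SE 0.62, adjusted p = 0.859), and miR-191-3p had at most 5 reads in a library.

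MiR-423-3p and miR-423-5p are cut from one hairpin, and the 3p arm spread more widely over the livers. MiR-423-3p gave 49.4, 58.6 and 138 CPM under the normal diet (82.1 ± 48.9) and 216, 93.0 and 160 CPM under the high-fat diet (156 ± 61.4). The log2 fold change was 0.99 (SE 0.47, adjusted p = 0.284), and the groups overlapped through NC replicate 3 and MAFLD replicate 2. Its SD of 0.83 was the largest of the members and ranked 195 of the 238 miRNAs whose mean reached 10 CPM, counted from the smallest. MiR-423-5p gave 59.2, 64.4 and 138 CPM under the normal diet and 116, 94.1 and 114 CPM under the high-fat diet (log2 fold change 0.41, SE 0.42, adjusted p = 0.611), with NC replicate 3 the highest of all 6. Median-ratio scaling left 93.9, 83.2 and 110 against 89.8, 97.9 and 87.5 for miR-423-5p, an SD of 0.14 and rank 7 of 238. For miR-423-3p it left 78.3, 75.8 and 111 against 168, 96.8 and 123, an SD of 0.43 (log2 fold change 0.53, SE 0.27, adjusted p = 0.326).

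MiR-186-5p and miR-320-3p had the smallest differences between the diets after median-ratio scaling. With size factors from miRNAs of at least 10 CPM their log2 fold changes were -0.15 and -0.11, and miR-361-5p was nearer to none, at 0.075. MiR-186-5p gave 74.9, 70.7 and 125 CPM under the normal diet and 146, 81.7 and 134 CPM under the high-fat diet, and after median-ratio scaling 119, 91.4 and 99.9 against 113, 85.0 and 103. Its log2 fold change was 0.42 on CPM (SE 0.41, adjusted p = 0.587) and -0.045 on the second scale (SE 0.24, adjusted p = 0.955). MiR-320-3p, whose precursor is made without the nuclear cut by Drosha, gave 32.6, 47.8 and 66.6 CPM under the normal diet and 68.7, 56.8 and 69.7 CPM under the high-fat diet. Median-ratio scaling brought these to 51.6, 61.8 and 53.2 against 53.4, 59.1 and 53.5, and the log2 fold change from 0.45 (SE 0.42, adjusted p = 0.566) to about 0 (-0.0032, SE 0.25, adjusted p = 0.996). The 95% interval of the latter fold change, whose variance limma drew in part from other miRNAs, still reached from 0.683 to 1.46. The SD of miR-320-3p then was 0.10, below the 0.14 that its 75 to 266 reads give by counting alone, so a smaller biological spread could not have been seen at this depth. MiR-186-3p had at most 1 read in a library.

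MiR-361-5p, the lowest member by CPM, had few reads (36 to 151), with a counting SD of 0.20 beside an SD over the livers of 0.58 on CPM and 0.37 after scaling. It gave 14.1, 26.1 and 30.7 CPM under the normal diet and 51.0, 32.2 and 26.7 CPM under the high-fat diet (log2 fold change 0.63, SE 0.47, adjusted p = 0.461). After median-ratio scaling the values were 22.4, 33.8 and 24.5 against 39.7, 33.5 and 20.5, so that MAFLD replicate 3 was the lowest liver and MAFLD replicate 1 the highest. MiR-361-3p gave 118, 101 and 131 CPM under the normal diet and 145, 146 and 147 CPM under the high-fat diet. It was the one member on CPM whose groups did not overlap, which held for 19.4% of all miRNAs tested. Its log2 fold change was 0.33 (SE 0.37, adjusted p = 0.645). The SD within its groups was 0.13, and the SE from limma draws on the variance of other miRNAs as well. The 3 MAFLD livers differed by an SD of 0.0093 on the log2 scale, below the counting SD of 0.091. After median-ratio scaling miR-361-3p overlapped widely, at 187, 131 and 105 in NC against 113, 152 and 113 in MAFLD livers. There too 1 of 8 members did not overlap (miR-191-5p), beside 20.8% of all.

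**Figure D2:**
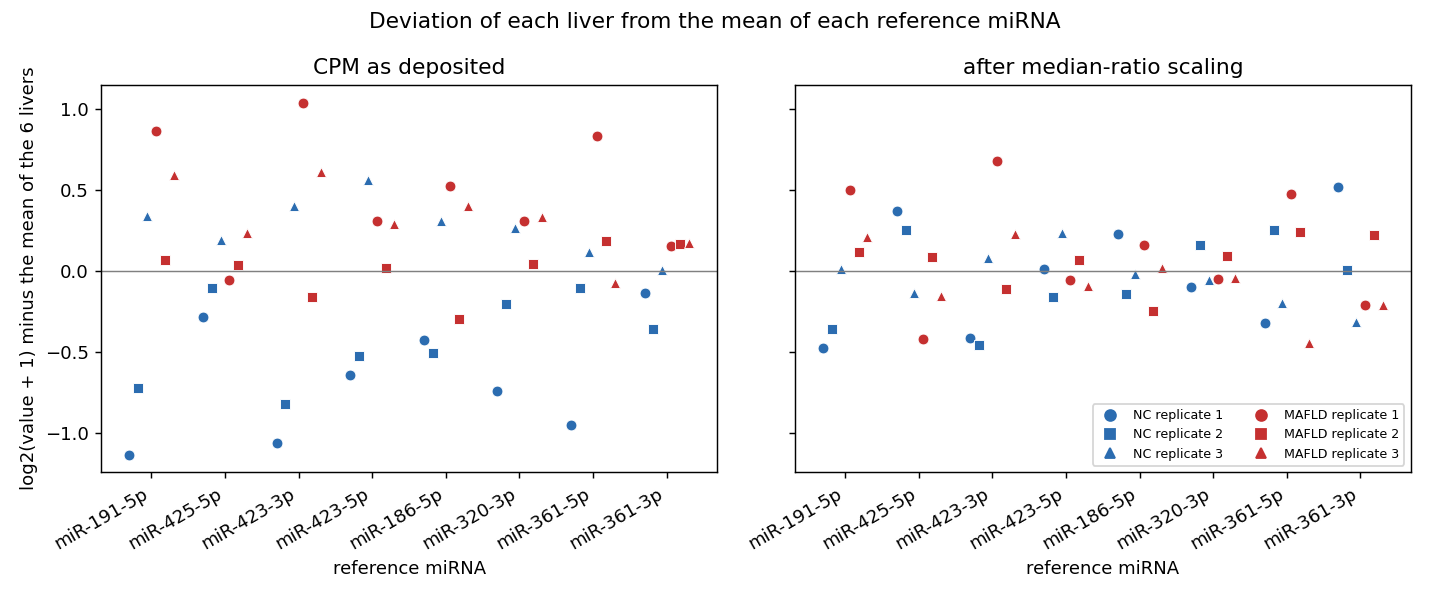
Each liver's log2(value + 1) minus the mean of the 6 livers, for the 8 reference miRNAs, on CPM (left) and after median-ratio scaling (right), with NC in blue and MAFLD in red. On CPM, NC replicates 1 and 2 lie below 0 for all 8 members, and after scaling the members keep different orders, with miR-320-3p within an SD of 0.10 and miR-423-3p at 0.43.

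The spread over all 6 livers, as the SD of log2(value + 1), had a median of 0.47 over the members on CPM and of 0.31 after median-ratio scaling. Over the 238 miRNAs whose mean reached 10 CPM the medians were 0.62 and 0.39. MiR-425-5p (0.19), miR-361-3p (0.21), miR-320-3p (0.42), miR-186-5p (0.46), miR-423-5p (0.49), miR-361-5p (0.58), miR-191-5p (0.78) and miR-423-3p (0.83) was the order on CPM. After scaling it was miR-320-3p (0.10), miR-423-5p (0.14), miR-186-5p (0.18), miR-425-5p (0.29), miR-361-3p (0.32), miR-191-5p (0.36), miR-361-5p (0.37) and miR-423-3p (0.43). The SD became smaller in 6 of 8 members (75%) and in 73.1% of the 238 miRNAs, a like share. The exceptions were miR-425-5p and miR-361-3p, the pair that had been steadiest on CPM.

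The NC livers spread more than the MAFLD livers in 8 of 8 members on CPM. The same held for 67.7% of all miRNAs tested and 77.7% of those with a mean of at least 10 CPM. Within NC the SD ran from 0.18 (miR-361-3p) to 0.79 (miR-423-3p), and within MAFLD from 0.0093 (miR-361-3p) to 0.61 (miR-423-3p). For miR-186-5p the 2 groups were almost equal, at 0.447 and 0.445. The share of a member's variance that lay between the diets was largest for miR-361-3p (70.1%) and miR-191-5p (50.8%) on CPM, and after scaling for miR-191-5p (68.2%). It was 0.0311% for miR-320-3p after scaling, so almost all of its spread lay within the groups. These shares were not tested or set beside those of all miRNAs. No member passed the adjusted threshold in limma with all libraries kept. After scaling the spread was larger in NC for 5 of 8 members, beside 66.5% of all miRNAs tested and 64.7% of those with a mean of at least 10 CPM.

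**Figure D3:**
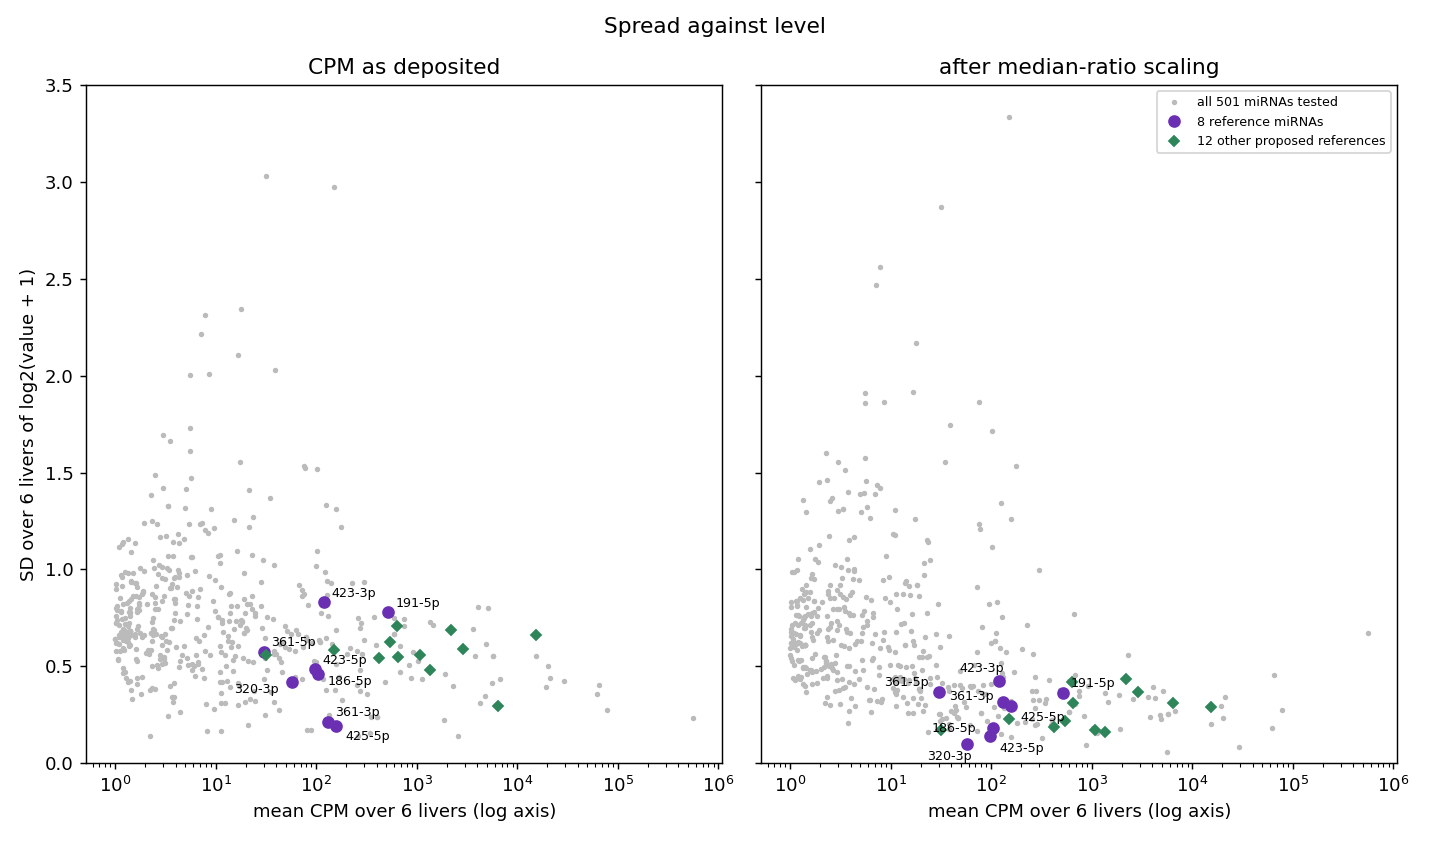
SD over the 6 livers of log2(value + 1) against the mean CPM (log axis), for all 501 miRNAs tested (grey), the 8 reference miRNAs (purple, labelled without the miR prefix) and 12 other proposed references (green), on CPM (left) and after median-ratio scaling (right). Of the 8, 6 lie below the median SD of the 238 miRNAs whose mean reached 10 CPM on the deposited scale (0.62) and 7 after scaling (0.39).

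Members passed the adjusted threshold in 1 of the fits with a library left out. Without NC replicate 3, the NC library in which the members read highest and miR-148a-3p took the smallest share of the 3, miR-191-5p (log2 fold change 1.44, adjusted p = 0.00609) and miR-423-3p (1.44, adjusted p = 0.0177) passed the threshold on CPM. All 8 members then had groups that did not overlap, as did 52.9% of all miRNAs tested. In that fit 114 of 501 miRNAs (22.8%) passed, with a median log2 fold change of 0.67 over all of them. NC replicates 1 and 2, the libraries left, are those with the brain markers and the largest shares of miR-148a-3p, and the part of either in these values was not tested. After median-ratio scaling no member passed without NC replicate 3, miR-191-5p coming nearest with an adjusted p of 0.0570. The count of members whose groups did not overlap moved with other livers too. On CPM it was 5 without MAFLD replicate 2 (38.5% of all miRNAs) and 2 without MAFLD replicate 3 (25.7%). After median-ratio scaling it was 3 without NC replicate 3 (41.3%), 3 without MAFLD replicate 2 (30.7%) and 2 without MAFLD replicate 3 (34.9%). The count of members higher after scaling went from 3 to 5 without NC replicate 1, NC replicate 3 or MAFLD replicate 3.

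The members can also be set against each other, which needs no scaling. Among the 28 pairs, the SD over the 6 livers of the difference in log2(CPM + 1) ran from 0.14 to 0.71 with a median of 0.41. The steadiest pair was miR-191-5p and miR-423-3p, from chromosomes 9 and 11, with 4.28, 4.80 and 4.26 reads of the first per read of the second in NC and 3.93, 5.23 and 4.40 in MAFLD livers. The next was miR-425-5p and miR-361-3p (SD 0.19), with ratios of 1.10, 1.45 and 1.38 against 1.05, 1.11 and 1.27. MiR-423-5p and miR-320-3p followed (SD 0.20). The least steady pair was miR-425-5p and miR-423-3p, whose ratio was 2.62, 2.50 and 1.30 in NC and 0.704, 1.74 and 1.16 in MAFLD livers. Position did not order the pairs: the neighbours miR-191-5p and miR-425-5p ranked 26 of 28 (SD 0.65), the 2 arms of miR-361 ranked 23 and the 2 arms of miR-423 ranked 19.

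For 3 of the 28 pairs the NC and MAFLD ratios did not overlap, against 26.6% of all pairs of the 238 miRNAs whose mean reached 10 CPM. MiR-191-5p per miR-423-5p was 3.57, 4.38 and 4.28 in NC against 7.34, 5.17 and 6.16 in MAFLD livers. MiR-191-5p per miR-186-5p was 2.82, 3.98 and 4.72 against 5.82, 5.96 and 5.26, and miR-423-3p per miR-186-5p was 0.660, 0.829 and 1.11 against 1.48, 1.14 and 1.20. These pairs share members and were not tested. Averaged over its pairs with the 7 other members, miR-320-3p had the smallest SD (0.32), followed by miR-423-5p (0.34) and miR-186-5p (0.36). MiR-423-3p had the largest (0.48), and the other four lay between 0.43 and 0.45.

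The ratio of the 2 arms of a hairpin was tested over the 105 hairpins with both arms measured. In miR-361 the 3p arm was the more read one in all 6 livers, with a log2 ratio of 5p to 3p of -2.98, -1.92 and -2.06 in NC and -1.49, -2.15 and -2.41 in MAFLD livers. The difference was 0.30 (SE 0.40, adjusted p = 0.755), and without NC replicate 1 it was -0.029. In miR-423 the arms were near balance in NC livers, at 0.26, 0.13 and -0.0078, and ran to the 3p arm in 2 of the MAFLD livers, at -0.89, 0.016 and -0.48. The difference was -0.58 (SE 0.32, adjusted p = 0.396), with NC replicate 3 below MAFLD replicate 2. Neither ratio passed an unadjusted p of 0.05, which 14.3% of the hairpins did, and neither had groups that did not overlap, as 20.0% did. No hairpin passed the adjusted threshold in limma, and 15 had an unadjusted p under 0.05.

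The geometric mean of the 8 members, used as a scaling factor, came close to the factor computed from 409 miRNAs, which include the 8. Other sets of miRNAs were not compared in this way. Relative to the mean of the 6 livers the members gave 0.622, 0.746 and 1.21 for the NC and 1.42, 1.00 and 1.25 for the MAFLD libraries. The median ratio gave 0.631, 0.774 and 1.25 and 1.29, 0.961 and 1.30. The quotient of the 2 factors stayed between 0.959 (MAFLD replicate 3) and 1.10 (MAFLD replicate 1). Together the members held 0.0689%, 0.0797% and 0.140% of the reads in NC and 0.174%, 0.115% and 0.154% in MAFLD libraries, and the order of these shares was the reverse of that of miR-148a-3p except that NC replicate 3 and MAFLD replicate 3 changed places.

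**Figure D4:**
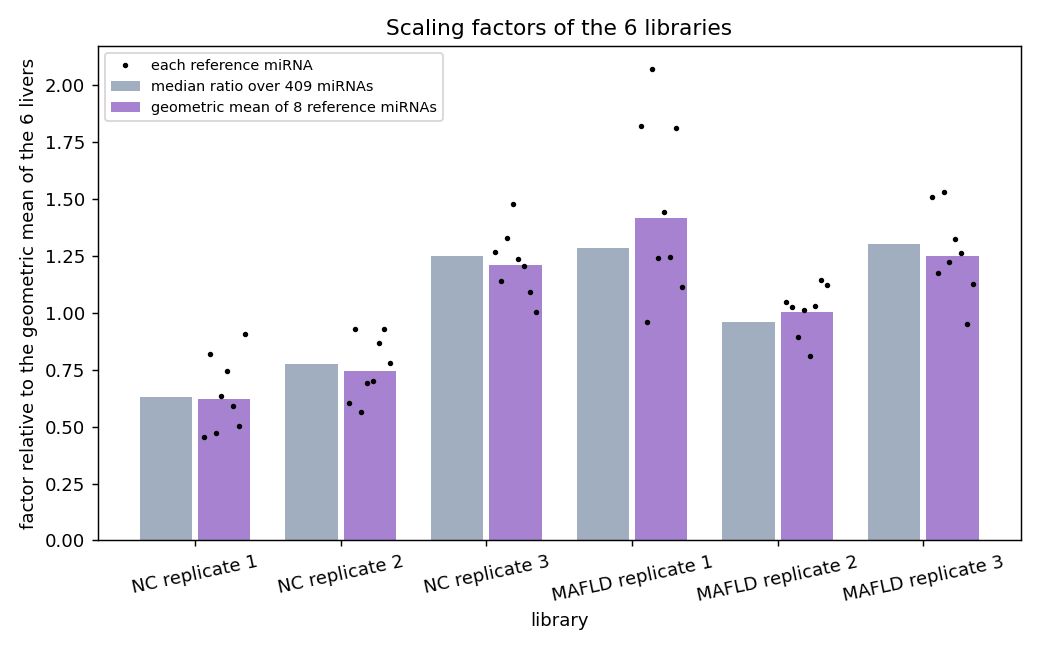
Scaling factor of each library relative to the geometric mean of the 6 livers, from the median ratio over 409 miRNAs (grey bars) and from the geometric mean of the 8 reference miRNAs (purple bars), with each reference miRNA alone as a dot. The bars differ by at most a quotient of 1.10, in MAFLD replicate 1, while the single members in one library spread much more widely.

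A single member in place of all 8 gave other counts for the rest of the table. Dividing by a member takes its own log2 difference between the diets from that of every other miRNA. The balance of higher and lower therefore follows largely from the fold changes above, and the member's counting error enters every value. With the libraries scaled by all 8 members, 84 of 501 miRNAs (16.8%) had an unadjusted p under 0.05, of which 26 were higher and 58 lower in MAFLD livers, and the median log2 fold change was -0.037. Scaled by miR-191-5p alone there were 107 (21.4%), of which 3 were higher and 104 lower (median -0.42). Scaled by its neighbour miR-425-5p there were 90 (18.0%), of which 63 were higher and 27 lower (median 0.31). MiR-423-3p gave 75 (15.0%), with 3 higher and 72 lower, and the other arm, miR-423-5p, gave 76 (15.2%), with 44 higher and 32 lower. With miR-186-5p the 71 (14.2%) divided evenly into 35 and 36. With miR-320-3p 70 (14.0%) divided into 27 and 43, with miR-361-5p 52 (10.4%) into 6 and 46, and with miR-361-3p 59 (11.8%) into 26 and 33. For comparison, 67 were higher and 23 lower on CPM as deposited, and 36 and 45 after median-ratio scaling.

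**Figure D5:**
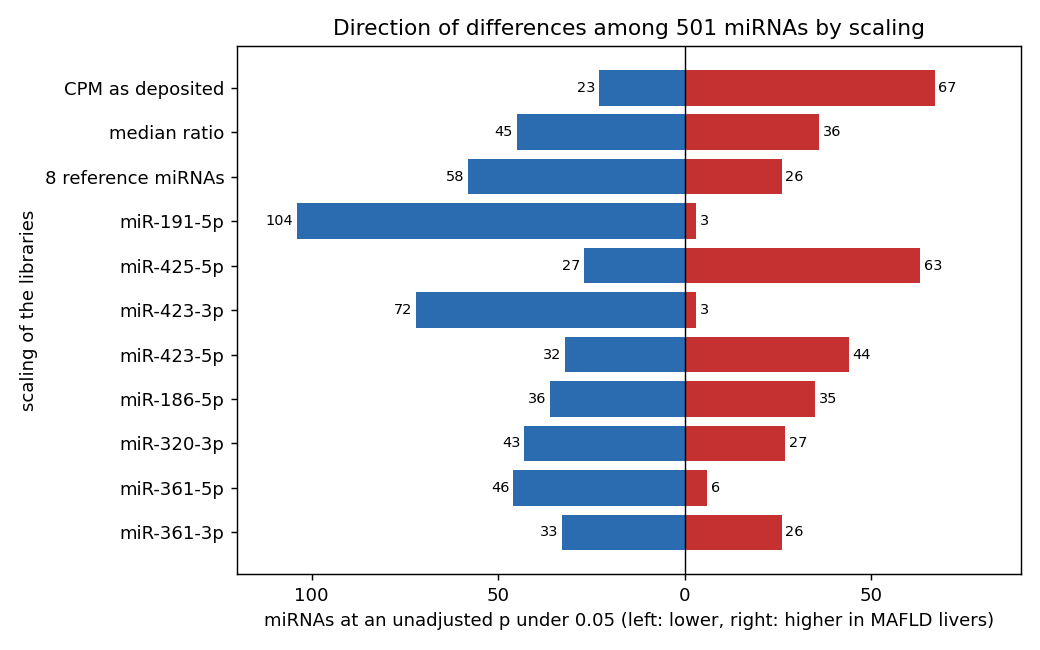
Number of miRNAs, of 501, with an unadjusted p under 0.05 that were lower (blue, left) or higher (red, right) in MAFLD than in NC livers, for each way of scaling the libraries. MiR-191-5p and miR-423-3p alone leave 3 higher miRNAs each, while miR-425-5p alone leaves 63 higher and 27 lower.

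The size of a single difference moved with the chosen member as well. MiR-300-3p, the miRNA the study centres on, had few reads: 16, 27 and 15 in NC and 9, 3 and 5 in MAFLD libraries. MAFLD replicate 2 was thus at the level of 3 reads taken as the lowest. In limma its log2 fold change was -1.91 on CPM (adjusted p = 0.152) and -2.30 after median-ratio scaling (adjusted p = 0.0554). Scaled by the members together or by each alone, the log2 fold change lay between -2.74 (miR-423-3p) and -2.02 (miR-425-5p). The adjusted p was between 0.0505 and 0.276, so 0 of the 9 scalings passed 0.05. MiR-802-5p, a liver miRNA linked to glucose metabolism in obesity and the one miRNA called on CPM (log2 fold change 2.60, adjusted p = 0.0263), lay between 1.61 (miR-191-5p) and 2.46 (miR-425-5p). It passed in 6 of the 9 scalings, and the adjusted p reached 0.120 with miR-361-3p.

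Other miRNAs proposed as references showed how the members compare. All 12 of these were higher in MAFLD livers on CPM (median log2 fold change 0.75), with 0 past the adjusted threshold, 4 with an unadjusted p under 0.05 (18.0% of all miRNAs) and 5 with groups that did not overlap (19.4% of all). After median-ratio scaling 10 were higher and 2 lower (median 0.28), with 0 past the adjusted threshold, 3 with an unadjusted p under 0.05 (16.2% of all) and 5 with groups that did not overlap (20.8% of all). Their median SD was 0.57 on CPM and 0.26 after scaling, against 0.47 and 0.31 for the members. On CPM miR-99a-5p (0.30) and miR-30e-5p (0.48) had the smallest SD and miR-16-5p (0.71) and miR-30c-5p (0.69) the largest. MiR-16-5p, a common reference in blood, gave 329, 336 and 515 CPM under the normal diet and 1044, 744 and 872 CPM under the high-fat diet (log2 fold change 1.19, SE 0.34, adjusted p = 0.152). After scaling the smallest were miR-30e-5p (0.16) and miR-484 (0.17), and the largest were miR-30c-5p (0.43) and miR-16-5p (0.42). For miR-484 counting alone gives an SD of 0.19, so a smaller biological spread could not have been seen at its depth.

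Outside the set, the miRNA whose pattern over the 6 livers was most like the mean of the 8 members was miR-30a-5p. The SD of its log2 difference from that mean was 0.067, against a median of 0.37 over 230 non-members with a mean of at least 10 CPM. MiR-30a-5p gave 17782, 21785 and 34564 CPM under the normal diet and 37170, 30155 and 34128 CPM under the high-fat diet. It was followed by miR-30e-5p (0.10), let-7i-5p (0.11), miR-152-3p (0.12) and miR-25-3p (0.12). Among the 105 miRNAs whose mean reached 100 CPM, the steadiest on CPM were miR-148b-3p (SD 0.14), miR-151-3p (0.14) and miR-139-5p (0.16), with SDs of 0.33, 0.56 and 0.31 after scaling. The steadiest after scaling were let-7i-5p (0.057), miR-30a-5p (0.086) and miR-23b-3p (0.096), with SDs of 0.41, 0.43 and 0.44 on CPM. None of the 6 was a member of the reference set, but the cut at 100 CPM left out miR-320-3p, miR-423-5p and miR-361-5p. Among the 238 miRNAs whose mean reached 10 CPM, miR-320-3p ranked 4 after scaling, counted from the smallest SD. On CPM miR-425-5p ranked 7 and miR-361-3p 9, against 195 for miR-423-3p.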

How the data were processed

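The authors deposited CPM values, reads scaled to the total on all listed miRNAs of a library. Per the labels, FastQC, cutadapt, Bowtie, edgeR and GRCm38 were used, with versions not given in the sources used here. The protocol fields also describe HepG2 cells, but every sample is labelled liver tissue. Reads were recovered from the CPM steps, and 100% of values came within 0.02 of a whole number. Of 1546 miRNAs, 79 were at 0 in every library.

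For the comparison of the diets limma 3.58.1 was run under R 4.3.3 (eBayes with a trend, two-sided, Benjamini-Hochberg) on log2(CPM + 1), over 501 miRNAs whose mean reached 1 CPM. A fold change is thus on the log2(value + 1) scale, which understates changes of low miRNAs. The same fit was run after median-ratio scaling and on 5p to 3p log2 ratios over 105 hairpins. Counting SDs come from the recovered reads and cover counting error only. Named miRNAs are the members, their other arms, the most and least variable of 12 other references, the 5 most alike and 3 steadiest miRNAs, and the markers. The members and lists were chosen with earlier results of these data known. Scaling by members was added after seeing the data.

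Alternatives used pseudocounts of 0.1 and 5, other filters (none, or a mean of at least 10 CPM) and scalings, limma without the trend, a replicate block, each library left out, and edgeR 4.0.16 and DESeq2 1.42.0 on the recovered reads. Same-numbered livers came from different mice, and their deviations correlated by 0.01, -0.02 and -0.05. EdgeR and DESeq2 scaled the libraries by factors of their own and not by CPM alone. The fits were also run on simulated counts in which all libraries of a group had the same expected composition. A library that stands apart from its group was not simulated, and no result here rests on that run.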

Additional observations from a re-analysis of the deposited data

How the results depend on the processing

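No member passed an adjusted p of 0.05 under any of 19 alternatives on CPM and 13 after median-ratio scaling, except on CPM without NC replicate 3, where 2 did (0 to 2 with one library left out). All 8 members were higher in MAFLD livers on CPM. This count was 3 with median-ratio scaling, 5 with quantile normalization and 3 with each member scaled by those of other loci. It was 4 with edgeR and 3 with DESeq2 on the recovered reads, both of which rescale the libraries. After median-ratio scaling it was 3, and 3 to 5 with a library left out. Of the fold changes on CPM, 24 of 152 turned. Some alternatives counted here cannot move a fold change. These are the other filters and the replicate block, on both scales, and limma without the trend. For miR-425-5p the log2 values were -0.33 (median ratio), -0.085 (quantile), -0.21 (CPM without miR-148a-3p), -0.40 (other loci), -0.29 (edgeR) and -0.34 (DESeq2). In the same order miR-361-3p gave -0.14, -0.023, -0.019, -0.24, -0.12 and -0.17. With median ratio, other loci, edgeR and DESeq2, miR-423-5p gave -0.053, -0.089, -0.044 and -0.073 and miR-186-5p -0.045, -0.15, -0.026 and -0.059. MiR-320-3p gave -0.0032 (median ratio), -0.025 (quantile), -0.10 (other loci) and -0.012 (DESeq2). After median-ratio scaling, 10 of 104 turned, all with a library left out. Over these fits miR-423-5p ran from -0.12 to 0.088, miR-186-5p from -0.13 to 0.084, miR-320-3p from -0.036 to 0.099, miR-361-5p from -0.0038 to 0.48 and miR-361-3p from -0.29 to 0.10. None was past the threshold, and the cause was not tested.

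The median SD of the members was 0.47 on CPM, 0.31 after median-ratio scaling and 0.25 on CPM without miR-148a-3p. With a library left out it was 0.40 to 0.52 on CPM and 0.25 to 0.33 after scaling. The arm difference of miR-361 ran from -0.029 (without NC replicate 1) to 0.50, and that of miR-423 from -0.82 to -0.36. Counts of all miRNAs past the adjusted threshold varied more. On CPM the count was 1, with 11 without a filter, 28 with DESeq2, 5 with the replicate block, 2 with median-ratio scaling or CPM without miR-148a-3p, 0 in limma without the trend, and 0 to 114 (without NC replicate 3) with a library left out. After median-ratio scaling it was 2, with 33 without a filter, 4 with the replicate block, 1 with the filter at 10 CPM or size factors from such miRNAs, and 0 to 36 (without NC replicate 3) with a library left out. Among hairpins it was 0, with 1 where both arms reached 10 CPM, 3 with the replicate block and 14 without NC replicate 3. The replicate numbers do not pair the livers. With the replicate block 5 miRNAs passed on CPM and 0 members. Each replicate number holds a library of each group, so the block cannot move the arm differences, 0.30 and -0.58, but only their errors.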
